A study of Mus musculus with 18 samples.

Results

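The genes described here are the 3 members of the p53 transcription factor family in the mouse, Trp63 (p63), Trp73 (p73) and Trp53 (p53), with 3 genes that they share as targets, Mdm2, Cdkn1a and Sfn. They were chosen by name and are 6 of the 52489 gene identifiers that matched the annotation. RNA-seq was made from 3 epithelial populations of the mammary gland of untreated nulliparous mice, aged 12 weeks and of the MMTV-Cre genotype. Hormone-sensing luminal cells (HSL) were sorted as CD49f-lo/CD61-, alveolar progenitors (AP) as CD49f-lo/CD61+ and basal cells as CD49f-hi/CD61+, and EpCAM and the lineage markers Ter119, CD45 and CD31 were stained too. Each population has 6 libraries, numbered 1 to 6. All 18 libraries carry the MMTV-Cre transgene, in which a mouse mammary tumour virus promoter drives Cre recombinase, so none of the groups is wild type.

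The members of the p53 family bind related DNA sites as tetramers. p53 is activated by DNA damage and other stress and arrests or kills the cell. Mdm2 is the ubiquitin ligase that marks p53 for degradation, and it is itself a p53 target. Cdkn1a encodes p21, an inhibitor of cyclin-dependent kinases, and Sfn encodes 14-3-3 sigma, which holds cell cycle proteins in the cytoplasm. p63 is a master regulator of stratified and basal epithelium, including the basal layer of the mammary gland, where the form without the transactivating N terminus (ΔNp63) prevails. p73 has both forms as well and is known for its roles in ciliated cells and neurons. Much of the activity of p53 is set by protein stability and modification, which RNA levels do not measure.

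In GRCm38 coordinates, Trp63 (ENSMUSG00000022510) lies at chr16:25683763-25892102 on the plus strand and Trp73 (ENSMUSG00000029026) at chr4:154056253-154140208 on the minus strand. Trp53 (ENSMUSG00000059552) is at chr11:69580359-69591873 on the plus strand, and Mdm2 (ENSMUSG00000020184) at chr10:117688875-117710758 on the minus strand. Cdkn1a (ENSMUSG00000023067) is at chr17:29090976-29100727 on the plus strand. Sfn (ENSMUSG00000047281), a gene of a single exon, is at chr4:133600556-133602168 on the minus strand. Of the 8 annotated coding transcripts of Trp63, 4 begin at the outer start and 4 at an inner start 118153 bases further in. The deposited values are 1 count per gene, so transcripts from the outer and the inner start are summed and cannot be told apart. The protocol does not mark the strand. The antisense gene Trp73os, which shares part of the Trp73 span, was listed at 0 in every library, while an unnamed transcript opposite Cdkn1a (AC167363.2), which covers 10.7% of its span, was not analysed here.

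Gene counts summed to 26516293 to 52404937 per HSL library, 37391691 to 62505465 per AP library and 29899462 to 91095830 per basal library. The marker genes matched the labels. The 8 markers of basal cells summed to 37.3 to 171 CPM (library-size-normalised counts, TMM method) in HSL libraries, 98.7 to 287 CPM in AP libraries and 24602 to 45548 CPM in basal libraries. The libraries of sample number 1 stood apart in all 3 populations. Of the 16471 genes tested, 8% were lowest and 10.1% were highest in sample 1 in each of the 3 populations at once. For the other numbers these shares lay between 0.504 and 2.87% and between 0.747 and 3.93%. The 12 markers of dividing cells summed to 511 CPM in HSL sample 1, 1894 CPM in AP sample 1 and 1056 CPM in basal sample 1. In samples 2 to 6 they summed to 69.6 to 99.5 CPM in HSL, 63.2 to 234 CPM in AP and 45.6 to 152 CPM in basal libraries. Results that rest on sample 1 are given with and without it.

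Trp63 marked the basal population. In samples 1 to 6, HSL libraries had 3.32, 11.7, 3.71, 8.83, 0.125 and 0.165 CPM of Trp63. AP libraries had 4.28, 4.52, 1.32, 1.55, 1.63 and 4.67 CPM. Basal libraries had 537, 479, 569, 303, 378 and 399 CPM. Every basal library was far above every library of the other populations, and the HSL libraries were the most uneven, with samples 5 and 6 at 4 counts each.

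The mean was 4.64 ± 4.69 CPM in HSL, 2.99 ± 1.64 CPM in AP and 444 ± 102 CPM in basal cells (SD, n = 6 each). In edgeR's quasi-likelihood test with Benjamini-Hochberg adjustment over all genes, Trp63 fell 148-fold in AP against basal cells (log2 fold change -7.21 ± 0.83 SE, adjusted p = 1.2e-06). In HSL against basal cells it fell 94.6-fold (-6.56 ± 0.81, adjusted p = 1.58e-06). Both differences were in the same direction in 6 of 6 samples and were called in 15 of 15 alternative settings. Between HSL and AP cells Trp63 was not called (0.65 ± 0.66, adjusted p = 0.464), and its direction there was reversed with limma-voom (-0.25). In these sorted bulk samples, fewer cells of a type and less RNA per cell cannot be told apart.

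The residual Trp63 of the luminal sorts can be set beside other basal transcripts of the same sample. Trp63 in HSL libraries amounted to 0.618, 2.44, 0.653, 2.92, 0.0332 and 0.0413% of the level in the basal library of the same number. The summed basal markers in HSL libraries amounted to 0.693, 0.155, 0.181, 0.105, 0.095 and 0.106% of theirs. In HSL samples 2 and 4 the Trp63 share was thus many times that of the summed markers, and in samples 5 and 6 it was below it. Single basal transcripts differed from that sum as well. In HSL samples 2 and 4 Snai2 stood at 0.691 and 0.676% of the basal level, at 0.387 and 0.308 CPM. Krt5 stood at 0.0951 and 0.495% and Trp73 at 1.76 and 0%. Krt14 stood at 0.127 and 0.122% and Acta2 at 0.149 and 0.049%. In AP libraries Trp63 stood at 0.797, 0.943, 0.233, 0.511, 0.43 and 1.17% and the markers at 1.17, 0.465, 0.341, 0.217, 0.448 and 0.629% of the basal level. HSL samples 2 and 4 also had the highest Ivl (involucrin, an envelope protein of differentiating keratinocytes), at 33.1 and 51 CPM, against 0.0882 to 4.08 CPM in the other HSL libraries. AP libraries had 0.0192, 13.7, 0.525, 3.99, 0.181 and 0.587 CPM of Ivl in samples 1 to 6. There Ivl was highest in sample 2 and Trp63 in sample 6, and sample 4 was high in Ivl but not in Trp63. The other 5 markers of skin keratinocytes were mixed. Lor (1.6 and 1.12 CPM) and Sbsn (0.169 and 0.154 CPM) also had their highest HSL values in samples 2 and 4, at low levels. The span of Sbsn is 99.8% shared with another gene. Together the 5 markers summed to 7.8 and 4.9 CPM in HSL samples 2 and 4 and to 5.4 to 8.02 CPM in the other HSL libraries. Krt10 (2.53 CPM) and Krt1 (1.08 CPM) had their lowest HSL values in sample 4, and Krtdap was at 0 in all HSL libraries. The part of such cells in the Trp63 values was not tested.

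Trp73 was also highest in basal cells, on a far lower level. In HSL libraries it was at 0 counts in 4 of 6, which allows up to 0.0529 to 0.123 CPM at 3 counts per library, and samples 2 and 3 had 0.266 and 0.0563 CPM. AP libraries had a lowest value of 0, a median of 0.031 and a highest value of 0.307 CPM. Basal libraries had a lowest value of 7.19, a median of 12.3 and a highest value of 18.2 CPM. All basal libraries were above all luminal ones, and the total over 6 libraries was 13 counts in HSL, 34 in AP and 3574 in basal cells.

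Trp73 fell in AP against basal cells (-6.84 ± 0.96, adjusted p = 1.27e-05, edgeR) and in HSL against basal cells (-7.73 ± 1.04, adjusted p = 4.3e-06, edgeR). Between HSL and AP cells the difference was -0.89 ± 1.01 (adjusted p = 0.515). That value rests on single libraries, since it was 0.06 without sample 1 and -3.25 (adjusted p = 0.0467) without sample 2. In HSL libraries the highest Trp73 and the highest Trp63 were both in sample 2.

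**Figure D1:**
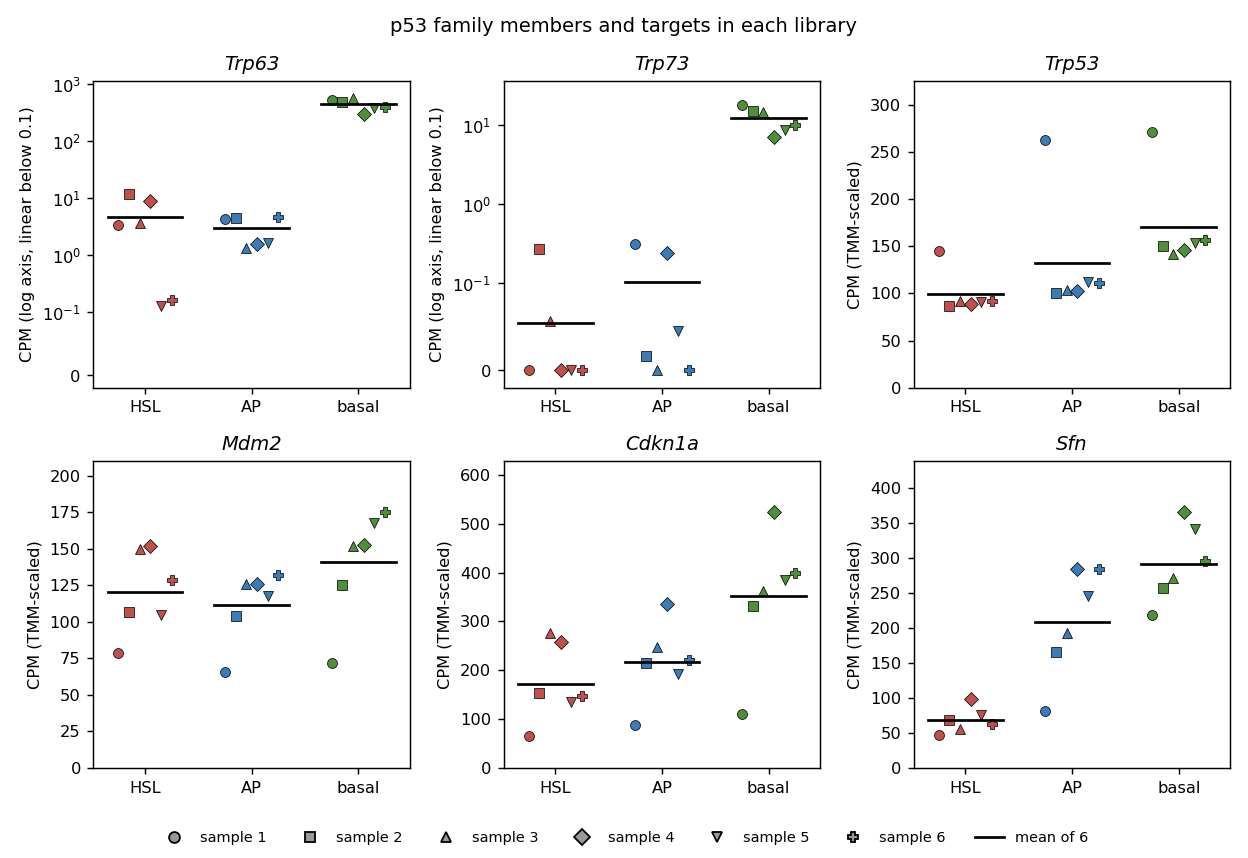
Normalised counts (CPM) of the 6 genes in each of the 18 libraries, by population, with symbols for the sample number and a bar for the mean of 6. The Trp63 and Trp73 axes are logarithmic above 0.1 CPM and linear below it, and the other axes are linear. Basal Trp63 sits between 303 and 569 CPM, above all HSL and AP libraries, and sample 1 is the highest Trp53 and the lowest Mdm2, Cdkn1a and Sfn library of every population.

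Trp53 was expressed in all 3 populations, with its highest mean in basal cells. HSL libraries had 145, 86.4, 92.3, 89.3, 90.4 and 92.2 CPM in samples 1 to 6. AP libraries had 263, 100, 104, 103, 112 and 111 CPM, and basal libraries 271, 150, 142, 146, 154 and 157 CPM. Sample 1 was the highest of each population, and within samples 2 to 6 every AP and HSL library was below every basal library. In the same sample, Trp53 was lower in HSL than in AP and lower in AP than in basal cells, in 6 of 6 samples.

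The mean was 99.3 ± 22.5 CPM in HSL, 132 ± 64.3 CPM in AP and 170 ± 49.9 CPM in basal cells (SD, n = 6 each). Trp53 fell in HSL against basal cells (-0.78 ± 0.24, adjusted p = 0.00969, edgeR), a 1.71-fold difference. In AP against basal cells it was not called with the population alone (-0.36 ± 0.24, adjusted p = 0.233, edgeR). With the sample number as a block it was called (-0.42 ± 0.09, adjusted p = 0.000949, edgeR), and likewise without sample 1 (-0.49 ± 0.06, adjusted p = 6.14e-06). HSL against AP cells gave the same picture, with -0.41 ± 0.24 (adjusted p = 0.18) for the population alone, -0.34 ± 0.09 (adjusted p = 0.0045) with the block and -0.26 ± 0.06 (adjusted p = 0.00269) without sample 1. Markers of dividing cells moved in the same fits. Of 12, 1 fell in HSL against basal cells and 0 in HSL against AP cells with the population alone (edgeR), while 9 and 11 fell in these comparisons with the block, and again 9 and 11 without sample 1. For AP against basal cells 0 fell, and 5 rose with the block and 1 without sample 1. The share of all genes called, in either direction, also grew in these fits. For the population alone, the block and without sample 1 it was 58.4, 67.3 and 64.7% in HSL against basal cells. In HSL against AP cells it was 39.9, 50.8 and 48%, and in AP against basal cells 44.7, 55.1 and 50.8%. The part of dividing cells in the Trp53 values was not tested.

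Mdm2 had the smallest fold change of the 6 genes in each of the 3 comparisons. HSL libraries had a lowest value of 78.8, a median of 118 and a highest value of 152 CPM. AP libraries had 65.5, 122 and 132 CPM, and basal libraries 71.8, 152 and 175 CPM, in the same order. The ranges overlapped throughout, and sample 1 was the lowest library of each population. Mdm2 was lower in AP than in basal cells in 6 of 6 samples, a difference of -0.33 ± 0.21 that was not called with the population alone (adjusted p = 0.224, edgeR). It was called with the block (-0.32 ± 0.09, adjusted p = 0.00992) and without sample 1 (-0.34 ± 0.12, adjusted p = 0.027). HSL cells were 0.22 ± 0.21 log2 units below basal cells, lower in 5 of 6 samples, and this was called neither alone (adjusted p = 0.383) nor with the block (adjusted p = 0.0674). Between HSL and AP cells the difference was 0.11 ± 0.21 (adjusted p = 0.724), with a sign that turned when total counts replaced TMM scaling (-0.09).

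Among the targets, the sequence before the start of Cdkn1a holds a known p53 response element, and the windows of Mdm2 and Sfn are shown beside it because the 3 genes are targets of 1 family and were lowest together in sample 1. Each is the 250 bases before an annotated RefSeq start in GRCm38.p6, on the strand of the gene. Capitals mark the 20 bases around the one match to CATG, any 6 bases and CATG again, the core of a full p53 site, a pattern that is its own reverse complement.
Cdkn1a, outer start, chr17:29090729-29090978, plus strand: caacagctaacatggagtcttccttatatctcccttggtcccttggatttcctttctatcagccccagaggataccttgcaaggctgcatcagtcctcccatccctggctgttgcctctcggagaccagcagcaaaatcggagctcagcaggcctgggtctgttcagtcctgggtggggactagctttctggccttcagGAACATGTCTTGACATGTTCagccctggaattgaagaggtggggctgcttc
Cdkn1a, inner start, chr17:29093519-29093768, plus strand: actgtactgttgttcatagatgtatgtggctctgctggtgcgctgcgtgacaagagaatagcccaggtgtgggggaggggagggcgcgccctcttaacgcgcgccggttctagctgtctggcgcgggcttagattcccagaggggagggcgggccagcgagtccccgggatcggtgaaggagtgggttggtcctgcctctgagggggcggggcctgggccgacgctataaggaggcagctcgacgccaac
Mdm2, chr10:117710759-117711008, minus strand: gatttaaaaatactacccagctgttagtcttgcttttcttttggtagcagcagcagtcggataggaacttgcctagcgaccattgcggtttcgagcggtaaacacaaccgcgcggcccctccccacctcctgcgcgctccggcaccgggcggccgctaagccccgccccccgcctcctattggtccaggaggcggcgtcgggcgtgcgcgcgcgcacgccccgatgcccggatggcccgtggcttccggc
Sfn, chr4:133602169-133602418, minus strand: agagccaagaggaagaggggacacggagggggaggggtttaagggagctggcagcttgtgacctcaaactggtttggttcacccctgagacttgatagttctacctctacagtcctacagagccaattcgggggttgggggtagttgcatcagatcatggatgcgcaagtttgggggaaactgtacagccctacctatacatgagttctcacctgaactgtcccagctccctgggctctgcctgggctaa
The match lies at chr17:29090928-29090947 and ends 32 bases before the outer start. It was the only one in the 7 windows of the 5 genes that had a RefSeq window (Trp63 was named in none), and 234 of 32851 windows of 300 bases, or 0.712%, hold it. The looser p53 decamer was found 2 times in the outer Cdkn1a window, where 1 of the 2 overlaps the core, and once each in the Mdm2 and Trp53 windows, against 8.36% of all windows with at least 1. GC content was 54% before the outer and 64.8% before the inner Cdkn1a start, 65.6% before Mdm2 and 54.4% before Sfn. Sequence outside these windows was not searched, so they do not show whether Mdm2 or Sfn has a full site elsewhere. A match is a description of the letters, and no binding was measured.

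Cdkn1a was highest in basal cells and lowest in HSL cells on average. HSL libraries had 65.8, 154, 276, 258, 135 and 147 CPM in samples 1 to 6. AP libraries had 88.6, 215, 247, 336, 193 and 221 CPM, and basal libraries 111, 331, 363, 523, 385 and 399 CPM. Sample 1 was the lowest library of each population. Over samples 1 to 6 the 3 ranges overlapped. Over samples 2 to 6 every HSL library (276 CPM or less) was below every basal library (331 CPM or more), while the AP range overlapped both. HSL was below basal and AP below basal in 6 of 6 samples.

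Mean Cdkn1a was 173 ± 79.7 CPM in HSL, 217 ± 80.1 CPM in AP and 352 ± 135 CPM in basal cells (SD, n = 6 each). It fell in HSL against basal cells (-1.03 ± 0.36, adjusted p = 0.0208, edgeR), with an adjusted p of 7.97e-06 with the block. Without the block the call was lost when sample 2, 5 or 6 was left out (adjusted p = 0.0625, 0.0791 and 0.0647). In AP against basal cells Cdkn1a was not called alone (-0.70 ± 0.36, adjusted p = 0.125, edgeR), but it was with the block (-0.68 ± 0.13, adjusted p = 0.000464) and without sample 1 (-0.72 ± 0.21, adjusted p = 0.0108). For HSL against AP cells the values were -0.33 ± 0.36 (adjusted p = 0.499) alone and -0.36 ± 0.13 (adjusted p = 0.0278) with the block, and HSL was lower in 5 of 6 samples. Without sample 1 this difference was not called (-0.35 ± 0.21, adjusted p = 0.197, edgeR). Genes that tissue dissociation induces were counted as well. Of 16 such genes, 4 fell and 1 rose in AP against basal cells, beside 23.1% of all genes lower and 21.5% higher. In HSL against basal cells 10 fell and 3 rose, beside 30.6% lower and 27.8% higher. The number called is below the share of all genes (44.7%) in the first comparison and above it (58.4%) in the second. The 16 genes summed to 10292 to 14424 CPM in HSL, 8007 to 16846 CPM in AP and 9378 to 24426 CPM in basal libraries, with none at 0. Their part in the Cdkn1a values was not tested.

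Sfn set HSL cells apart from both other populations. HSL libraries had a lowest value of 47.4, a median of 65.7 and a highest value of 98.8 CPM. AP libraries had 81.4, 219 and 284 CPM, and basal libraries 218, 284 and 365 CPM, in the same order. All HSL libraries were below all basal ones, and only AP sample 1, at 81.4 CPM, fell inside the HSL range.

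Sfn averaged 68.2 ± 17.8 CPM in HSL, 209 ± 78.8 CPM in AP and 291 ± 54.8 CPM in basal cells (SD, n = 6 each). It fell 4.28-fold in HSL against basal cells (-2.10 ± 0.25, adjusted p = 1.35e-06, edgeR) and 3.06-fold in HSL against AP cells (-1.61 ± 0.25, adjusted p = 6.17e-05, edgeR), in 6 of 6 samples each. In AP against basal cells the difference of -0.48 ± 0.25 was not called alone (adjusted p = 0.122, edgeR). It was called with the block (-0.55 ± 0.15, adjusted p = 0.00618) but not without sample 1 (-0.38 ± 0.17, adjusted p = 0.0794). Of the 6 other 14-3-3 genes, all tested, Ywhah (14-3-3 eta) fell in HSL against AP cells (-1.36 ± 0.20, adjusted p = 2.8e-05, edgeR). Ywhag and Ywhaq rose (0.43 ± 0.13 and 0.37 ± 0.08), and 3 were not called. Of all genes, 19.8% were higher and 20.1% lower there. In HSL against basal cells Ywhah fell too (-1.55 ± 0.20) and 2 rose, beside 30.6% of all genes lower and 27.8% higher. In AP against basal cells 1 rose and 2 fell, beside 21.5% higher and 23.1% lower.

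**Figure D2:**
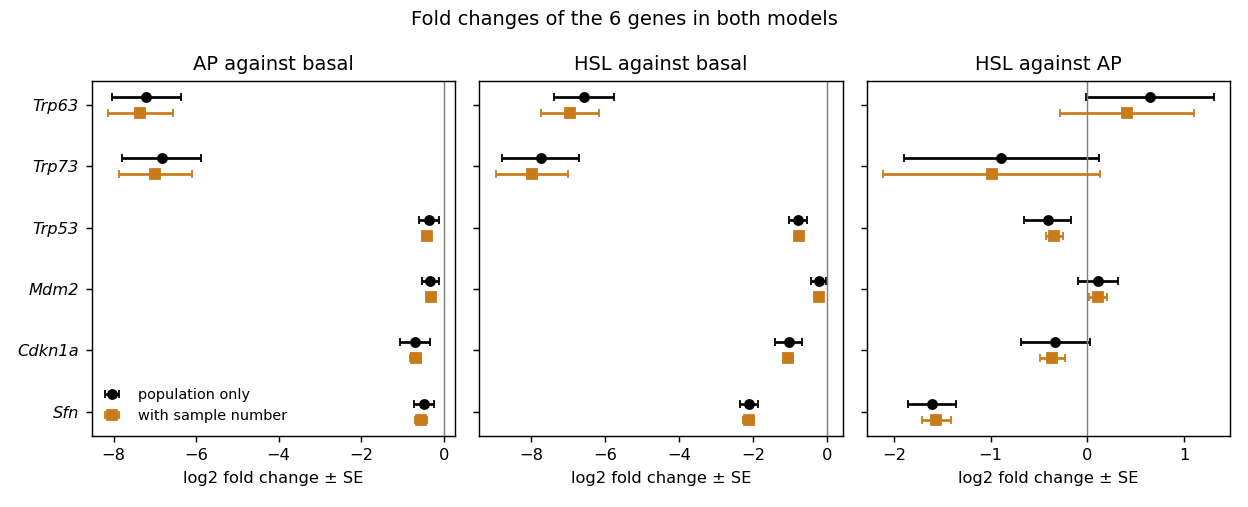
Log2 fold changes of the 6 genes with their standard errors in the 3 comparisons, with the population alone (black circles) and with a block for the sample number (orange squares). The 3 horizontal axes have different ranges. The point estimates are close in both fits, while the errors of Trp53, Mdm2, Cdkn1a and Sfn are smaller with the block, for example 0.09 in place of 0.24 for Trp53 in AP against basal cells.

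Counted over the 6 genes, all calls were towards lower levels in the first population of each pair. In AP against basal cells 2 were called with the population alone, Trp63 and Trp73, beside 44.7% of all genes tested (23.1% lower). With the block 6 of 6 were called, beside 55.1% of all genes, and without sample 1 5 of 6, beside 50.8%. In HSL against basal cells 5 of 6 were called, all but Mdm2, beside 58.4% of all genes (30.6% lower), and the same 5 with the block (67.3%) and without sample 1 (64.7%). In HSL against AP cells Sfn was called alone (39.9% of all genes, 20.1% lower and 19.8% higher), Trp53 and Cdkn1a joined it with the block (50.8%), and Trp53 did without sample 1 (48%). The count with the population alone in AP against basal cells is below the share of all genes, as are all 3 counts in HSL against AP cells, and the others are above it. With 6 genes chosen by name, nothing particular to them is read from the counts. Libraries did not overlap for 2 of 6 genes in AP against basal cells (25.9% of all genes), 3 in HSL against basal cells (36.9%) and 0 in HSL against AP cells (20.6%). The comparisons with basal cells share the basal libraries.

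Compared per length, as CPM per kilobase of annotated exon, the order of the genes depended on the population. In basal cells it was Sfn (181 ± 33.9), Cdkn1a (99.1 ± 38), Trp63 (52.9 ± 12.1), Trp53 (42 ± 12.3), Mdm2 (27.7 ± 7.46) and Trp73 (2.23 ± 0.78). In AP cells Sfn (129 ± 48.8) and Cdkn1a (61 ± 22.6) again led, Trp53 (32.7 ± 15.9) and Mdm2 (22 ± 4.86) followed, and Trp63 (0.357 ± 0.196) was near the bottom, above Trp73 (0.0183 ± 0.0244). In HSL cells Cdkn1a (48.6 ± 22.4) and Sfn (42.3 ± 11.1) were followed by Trp53 (24.5 ± 5.56), Mdm2 (23.7 ± 5.63), Trp63 (0.553 ± 0.56) and Trp73 (0.00971 ± 0.0192). The ranges of the first 4 genes overlapped from neighbour to neighbour in every population, Mdm2 in HSL and AP cells lay wholly above Trp63, and Trp63 and Trp73 overlapped in HSL cells. In basal cells Mdm2 lay wholly below Trp53, and Trp73 wholly below the rest. Whether reads in introns were counted is not given in the sources used here, and it would bear on these levels more for genes with long introns, such as Trp63, than for Sfn.

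Sample 1 stood on opposite sides for Trp53 and for the targets. There, log2 Trp53 lay 0.68 in HSL, 1.31 in AP and 0.86 in basal cells above the mean of the other 5 libraries of the population. Mdm2 lay at -0.69, -0.88 and -1.09 on the same scale and in the same order of populations, Cdkn1a at -1.49, -1.42 and -1.83, and Sfn at -0.58, -1.49 and -0.48. Trp53 was thus the highest, and Mdm2, Cdkn1a and Sfn the lowest, in sample 1 of every population. Trp63 had no such order, with sample 1 ranking 4th in HSL, 3rd in AP and 2nd in basal cells. Among the 32 other p53 targets, 7 (21.9%) were lowest in sample 1 in all 3 populations, beside 8% of all genes: Gadd45a, Sesn2, Trp53inp1, Plk3, Polk, Ercc5 and Ak1. The p53 targets Pidd1 and Tigar (6.25% of the 32) were the highest there, beside 10.1% of all genes. Of the 12 markers of dividing cells, 11 (91.7%) were highest in sample 1 in all 3 populations, beside the same 10.1%. Their median deviation was 4.04 in HSL, 4.02 in AP and 3.58 in basal cells. Their part in the p53 values was not tested.

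**Figure D3:**
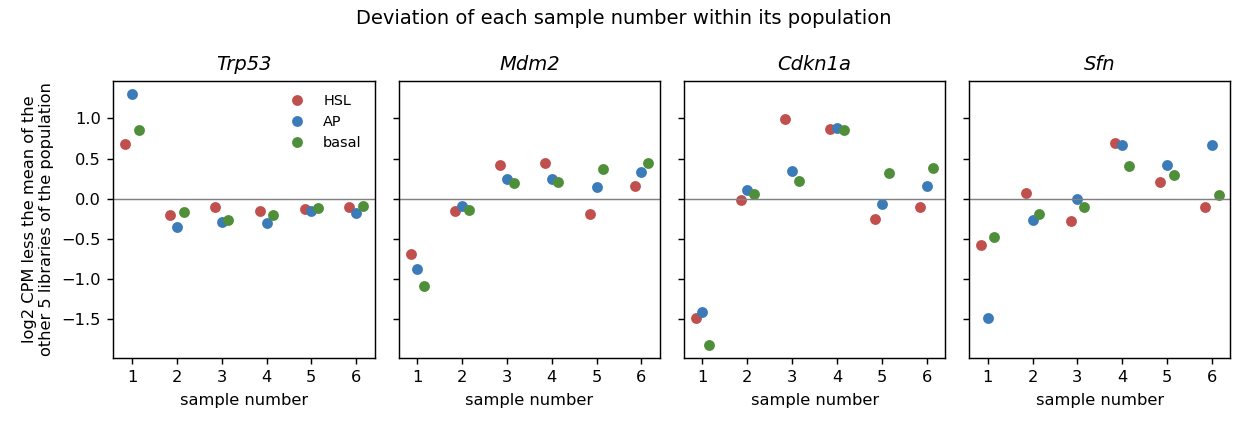
Deviation of each library from the mean of the other 5 libraries of its population, in log2 CPM, by sample number, for Trp53, Mdm2, Cdkn1a and Sfn, with a colour for each population. Sample 1 is above 0 for Trp53 and below 0 for the other 3 genes in HSL, AP and basal cells alike, and the deviations of samples 2 to 6 include sample 1 in the mean they are set against.

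Of 28 genes linked to p63 in epithelium, 27 were tested, and most fell in the luminal populations. In AP against basal cells 21 fell, 2 rose and 4 were not called, with a median log2 fold change of -2.45 beside -0.00 over all genes, of which 23.1% fell and 21.5% rose. Krt14, a keratin of basal cells and a classic p63 target, fell to 20.7 ± 9.45 CPM in AP, against 7167 ± 1882 CPM in basal cells (-8.43 ± 0.50, adjusted p = 3.35e-10). Snai2, a transcription factor of mesenchymal and stem-like states, stood at 0.428 ± 0.181 CPM in AP and 58.2 ± 12.6 CPM in basal cells (-7.07 ± 0.31, adjusted p = 9.93e-12). Trim29 fell as well (-5.14 ± 0.28). Evpl, which encodes the cornified envelope protein envoplakin, rose to 34.9 ± 9.64 CPM in AP, against 2.77 ± 1.08 CPM in basal cells (3.64 ± 0.33). Ripk4 (0.25 ± 0.10, adjusted p = 0.0588, and 0.0244 with the block) and Chuk (0.28 ± 0.14, adjusted p = 0.125) were not called with the population alone.

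In HSL against basal cells 21 of the 27 p63-linked genes fell, 3 rose and 3 were not called, with a median of -2.67 beside -0.06 over all genes, of which 30.6% fell and 27.8% rose. Krt14 (-9.51 ± 0.53), Snai2 (-7.61 ± 0.32) and the Notch ligand Jag2 (-7.65 ± 0.54) fell in HSL cells, while Evpl (4.86 ± 0.35), the growth factor receptor Fgfr2 (1.05 ± 0.19) and the kinase Ripk4 (0.35 ± 0.10) rose. Of the Fgfr2 span 58.2% is shared with other genes, so reads could be split there. The luminal populations differed from each other in 14 of the 27 genes, 7 higher and 7 lower in HSL than in AP cells (median -0.20, beside -0.01 over all genes). Of all genes 39.9% were called in that comparison, 19.8% higher and 20.1% lower. Trim29 (2.29 ± 0.25), the Notch ligand Jag1 (2.25 ± 0.24) and Fgfr2 (1.78 ± 0.20) rose in HSL against AP cells. The receptor Egfr fell to 10.9 ± 7.91 CPM in HSL, against 114 ± 19.7 CPM in AP cells (-3.37 ± 0.38), and Satb1 (-2.56 ± 0.47) and the Wnt receptor Fzd7 (-1.32 ± 0.36) fell too. Krt5 (-0.40 ± 0.51) and Igfbp3 (-0.80 ± 0.61) were not called between HSL and AP cells with the population alone, and Igfbp3 was with the block (-1.11, adjusted p = 0.0444). Without sample 5, 4 of the 27 fell in HSL against AP cells in place of 7. Several of these genes also mark basal cells, and the list's direction against basal cells was not separated from that of the basal population as a whole. Endothelial markers were lower too, 8 of 8 in each comparison with basal cells, and summed to 16 to 45 CPM in HSL, 26 to 86.8 CPM in AP and 77.3 to 232 CPM in basal libraries, none at 0. Fibroblast markers fell in HSL against basal cells and in HSL against AP cells, 8 of 8 each, and in AP against basal cells 4 rose and 2 fell. They summed to 40.8 to 116 CPM in HSL, 644 to 1634 CPM in AP and 1015 to 1959 CPM in basal libraries, none at 0. Of the erythroid markers 4 of 4 tested fell in each comparison with basal cells. They summed to 9.36 to 32.4 CPM in HSL, 13.4 to 69.6 CPM in AP and 65.2 to 264 CPM in basal libraries. The erythroid marker Alas2 was at 0 in all libraries, but its span is 100% shared with other genes, so that value is less certain. Leukocyte markers summed to 4.78 to 209 CPM in HSL, 5.42 to 139 CPM in AP and 75.3 to 401 CPM in basal libraries, none at 0. With the population alone 1 of 8 fell in HSL and 2 in AP against basal cells, and with the block 7 and 6. The part of these cell types was not tested.

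The 32 known p53 targets other than the 3 above moved both ways. In AP against basal cells 11 fell, 4 rose and 17 were not called, with a median of 0.00. The called targets, 15 of 32, are close to the 44.7% of all genes called (23.1% lower and 21.5% higher). Perp, a desmosomal protein that is a target of p63 as well and is in both lists, fell to 151 ± 21.7 CPM in AP, against 1054 ± 171 CPM in basal cells (-2.80 ± 0.19, adjusted p = 1.78e-09). The adenylate kinase Ak1 (-4.55 ± 0.37) and the Akt inhibitor Phlda3 (-3.17 ± 0.26) fell, while Trp53inp1, a stress-induced nuclear protein, rose to 559 ± 233 CPM in AP, against 81 ± 24 CPM in basal cells (2.79 ± 0.43, adjusted p = 3.56e-05). Psrc1 (1.54 ± 0.51) and Ei24 (0.30 ± 0.10) rose, and Btg2 (-0.53 ± 0.24, adjusted p = 0.0778) and Plk2 (0.29 ± 0.16, adjusted p = 0.157) were not called. Without sample 1, 7 targets rose and 11 fell in AP against basal cells, and without sample 2, 4 or 5 only 2 rose.

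In HSL against basal cells 14 targets rose, 12 fell and 6 were not called, with a median of 0.22 beside -0.06 over all genes, of which 27.8% rose and 30.6% fell. The kinase Plk2 rose to 807 ± 103 CPM in HSL, against 201 ± 42.4 CPM in basal cells (2.01 ± 0.17, adjusted p = 1.02e-08). Trp53inp1 (3.07 ± 0.44) and the pro-apoptotic Bax (1.35 ± 0.20, a gene that shares 17.6% of its span) rose. The death receptor Fas fell to 2.74 ± 1.13 CPM in HSL, against 38 ± 9.53 CPM in basal cells (-3.79 ± 0.29), and Phlda3 (-3.33 ± 0.26) and Perp (-1.99 ± 0.19) fell. In HSL against AP cells 13 targets rose, 3 fell and 16 were not called, with a median of 0.28 beside -0.01 over all genes, of which 19.8% rose and 20.1% fell. With samples 1 to 3 alone 1 target rose and 1 fell. Plk2 (1.72 ± 0.16), Bax (adjusted p = 0.000312) and the cyclin Ccng1 (0.93 ± 0.18) rose in HSL cells. Fas (-2.83 ± 0.28), the antiproliferative Btg2 (-0.69 ± 0.24) and the apoptosome protein Apaf1 (-0.60 ± 0.18) fell. Sfn and Cdkn1a were thus lower in HSL than in basal cells while 14 other p53 targets were higher and 12 lower there. Sesn1 (0.04 ± 0.22) and Sesn2 (-0.28 ± 0.23) were not called in HSL against basal cells.

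**Figure D4:**
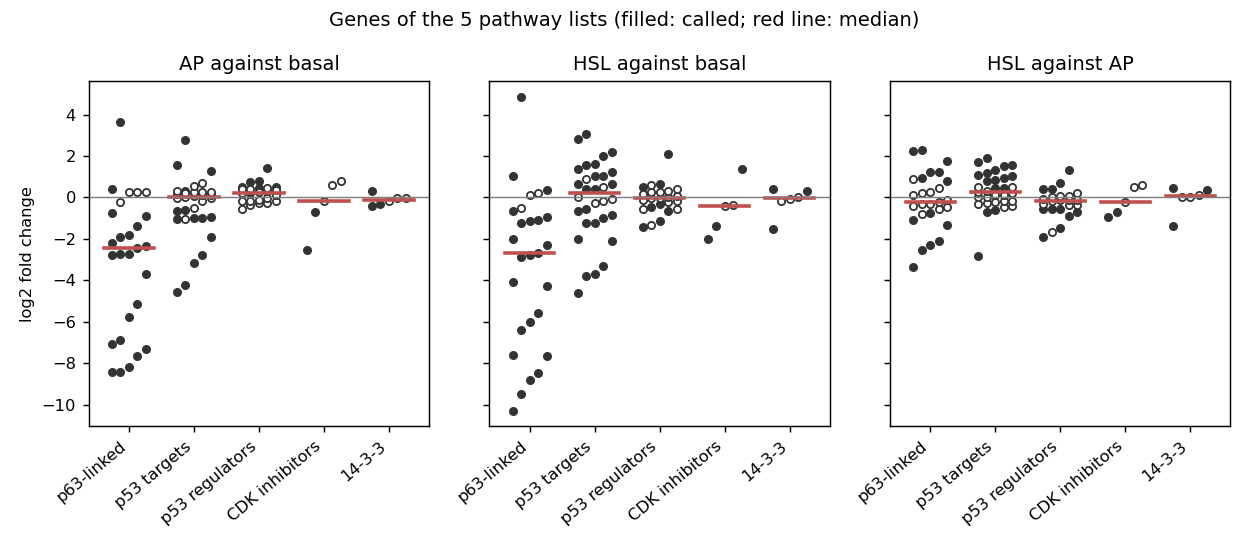
Log2 fold change of each tested gene of the 5 lists (p63-linked genes, p53 targets, p53 regulators, inhibitors of cyclin-dependent kinases and 14-3-3 genes) in the 3 comparisons, filled where called, with a red line at the median. The p63-linked genes spread from 3.64 to -8.44 in AP against basal cells with a median of -2.45, and the medians of the p53 targets are 0.00, 0.22 and 0.28.

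Of 24 regulators of p53 tested, 7 rose and 0 fell in AP against basal cells, with a median of 0.24, beside 21.5% of all genes higher and 23.1% lower. With the block 10 rose and 0 fell, where 55.1% of all genes were called. Without sample 5, 4 rose in AP against basal cells, and with samples 1 to 3 alone 1 did. Trp53bp2 (ASPP2, which steers p53 towards apoptotic genes) rose to 337 ± 89.1 CPM in AP, against 126 ± 45.3 CPM in basal cells (1.42 ± 0.22, adjusted p = 4.08e-05). The phosphatase Ppm1d, which reverses p53 phosphorylation, rose by 0.52 ± 0.14 and Ppp1r13b (ASPP1) by 0.50 ± 0.14. Usp7, which removes ubiquitin from p53 and Mdm2, had 0.31 ± 0.13 (adjusted p = 0.0598, and 0.00804 with the block) and Itch 0.20 ± 0.12 (adjusted p = 0.185, and 0.0499 with the block). In HSL against basal cells 3 rose and 5 fell, beside 27.8% of all genes higher and 30.6% lower. With the block 7 rose and 7 fell, where 67.3% of all genes were called, and without sample 1 6 rose and 7 fell. Without sample 4, 3 fell in HSL against basal cells. The kinase Hipk2 rose to 227 ± 48 CPM in HSL, against 53.2 ± 15.3 CPM in basal cells (2.09 ± 0.24, adjusted p = 8.27e-07), and Trp53bp1 rose by 0.65 ± 0.09. The deacetylase Sirt1 (-1.12 ± 0.17), the checkpoint kinase Chek2 (-1.45 ± 0.34) and the p53 inhibitor Mdm4 (-0.46 ± 0.14) fell. In HSL against AP cells 4 rose (2 without sample 4 or 6), led by Hipk2 (1.34 ± 0.24), and 7 fell, among them Trp53bp2 (-1.47 ± 0.22), Chek2 (-1.92 ± 0.34) and Ppm1d (-0.71 ± 0.14). Beside these counts, 19.8% of all genes were higher and 20.1% lower. Mdm4, the partner of Mdm2, was thus called lower in HSL than in basal cells. Mdm2 was not called there but had the same sign (-0.22 ± 0.21), and the difference between these genes was not tested.

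Of the other inhibitors of cyclin-dependent kinases, 5 of 6 were tested, since Cdkn2a (p16 and p19Arf) had too few counts. In HSL against basal cells 1 rose and 2 fell, beside 27.8% of all genes higher and 30.6% lower. In AP against basal cells 0 rose and 2 fell (21.5% and 23.1%), and in HSL against AP cells likewise (19.8% and 20.1%). Cdkn2b rose in HSL against basal cells (1.38 ± 0.45, adjusted p = 0.0136, edgeR), at 2.71 ± 0.638 CPM against 1.04 ± 0.523 CPM. Cdkn2d fell to 12.8 ± 2.47 CPM in HSL and 9.01 ± 3.66 CPM in AP, against 51.5 ± 8.66 CPM in basal cells (-2.01 ± 0.21 in HSL and -2.52 ± 0.22 in AP). Cdkn1c (p57), whose span is 32.9% shared with other genes, fell in the same 2 comparisons (adjusted p = 3.23e-05 in HSL and 0.0141 in AP, edgeR). It also fell in HSL against AP cells (-0.69 ± 0.22, adjusted p = 0.0183, edgeR). Cdkn1b (p27) was not called in HSL (-0.42 ± 0.57) or AP (-0.18 ± 0.57) against basal cells with the population alone, but in HSL cells it was with the block (-0.48, adjusted p = 0.0152), and Cdkn2c fell in HSL against AP cells (-0.93 ± 0.36, adjusted p = 0.0486).

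The genes whose log2 CPM followed each member most closely over the 18 libraries were ranked by Pearson's r among 10725 or 10726 genes with a mean of 5 CPM or more, as a description. The 18 points share their populations and sample numbers. Trp63 was followed by Prdm1 (r = 0.964), Jag2 (0.963), Wif1, Fam129a and Abcb1b. Trp73 was nearest to Tmem200a (0.966), Snai2 (0.964), Phlda3 (0.963), Ccdc85b and Irx4, all with their highest level in basal cells. Trp53 was nearest to Mthfd1 (0.970), the SUMO-activating subunit Uba2 (0.969), the nucleotide-pool enzyme Dut (0.963), the single-strand DNA-binding subunit Rpa2 (0.958) and Gm4204. Mdm2 had less close followers, led by the Polycomb protein Rnf2 (0.927) and Fndc3a (0.912), and Cdkn1a was led by Tns2 (0.893) and Akap8l (0.890). Sfn was followed by Copz2 (0.981), Gm6085 (0.959), Serpinb6a and Ppp1r15a (0.958 each) and Pxdc1 (0.957). Of the genes named here or above, Ei24 (19.3%), Satb1 (18.5%), Sirt1 (20.8%), Gadd45a (36.4%), Sesn2 (33%), Tigar (37.9%), Mthfd1 (30.2%), Ccdc85b (58.7%), Serpinb6a (57.5%) and Ppp1r15a (21.4%) also share that part of their span with other genes, so their counts are less certain.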

How the data were processed

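The 18 libraries were made from 2 ng of RNA with a Smart-Seq v4 kit and a Nextera XT kit, neither of which marks the strand, per the labels' protocols. The authors deposited whole-number counts per gene, RPKM values and a gene width, per the file headers. Per the submitters' processing notes the genome build was GRCm38. The sources used here name no aligner or counter. The deposited RPKM values were not used for any result, since the width (an other measure, deposited by the authors) equals the whole genomic span for 85.6% of identifiers.

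Of 52636 identifiers, 52489 matched GENCODE M21, and the other 147 (0.00303 to 0.00677% of counts) were left out. Counts were fitted with edgeR 4.0.16 in R 4.3.3 (robust quasi-likelihood test, TMM factors, filterByExpr with a minimum count of 10, all 3 populations in 1 model without the sample number), which left 16471 genes. Genes were called at a Benjamini-Hochberg adjusted p under 0.05. CPM use TMM-scaled library sizes, with a prior count of 2 on the log scale. Deviations and correlations use log2 CPM. The fit was tested on simulated data.

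Same-numbered libraries deviated together: the correlation of deviations from the population means was 0.127 to 0.63 over 18 pairs of libraries, so the sample numbers were taken to pair the libraries. The labels do not tie each number to an animal, and p-values measure the spread between these samples. The 15 alternatives were the sample number as a block, DESeq2 1.42.0, limma-voom (limma 3.58.1), total counts, 2 filters, each pair of populations alone, each sample number left out, and samples 1 to 3 or 4 to 6 alone. Genes were named by a rule: the 6 members, up to 3 called genes a direction in each list with the smallest adjusted p and a mean of 5 CPM or more, up to 2 that were not called with the highest mean CPM, and the 5 genes most like each member. Named beside the rule were Cdkn2b, Cdkn1c in HSL against AP cells, the p53 targets at an extreme in sample 1 and some cell type markers. The members and lists were chosen with earlier results of these data known. Promoter windows are from RefSeq (GRCm38.p6). A gene that the rule names is not reported here.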

Additional observations from a re-analysis of the deposited data

Results flagged for a closer look

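In 18 groups of 6 libraries, 4 held a library whose gap to its nearest neighbour was too large a share of the whole range by Dixon's test, and chance alone flags about 1 in 20. Of these, 3 concern Trp53 in sample 1: 145 CPM in HSL, where the next library had 92.3 CPM, 263 CPM in AP, where the next had 112 CPM, and 271 CPM in basal cells, where the next had 157 CPM. The fourth is Trp73 in HSL sample 2, at 0.266 CPM, where the next library had 0.0563 CPM and 4 had 0 counts.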

How the results depend on the processing

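Against basal cells, Trp63 and Trp73 in both luminal populations and Sfn in HSL were called in the same direction under every alternative run, and so was Sfn in HSL against AP cells. The numbers of genes called with samples 1 to 3 alone were 3718 for AP cells and 5674 for HSL cells, both set against basal cells, and 1491 for HSL set against AP cells. With samples 4 to 6 alone they were 7693, 9835 and 7090. When single sample numbers were left out these counts ranged from 6205 to 8352, from 8546 to 10651 and from 5207 to 7898.

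The replicate block gave calls that the population alone did not: in AP against basal cells for Trp53 (-0.42), Mdm2 (-0.32), Cdkn1a (-0.68) and Sfn (-0.55), and in HSL against AP cells for Trp53 (-0.34) and Cdkn1a (-0.36). It changed no other call of the 6 genes. Samples 4 to 6 alone also gave calls in AP against basal cells for Trp53 (-0.46), Mdm2 (-0.37) and Cdkn1a (-0.77), in HSL against basal cells for Mdm2 (-0.36) and in HSL against AP cells for Trp53 (-0.30). Samples 1 to 3 alone lost the HSL against basal calls of Trp53 (-0.80) and Cdkn1a (-0.76), while samples 4 to 6 alone kept both (-0.76 and -1.28), and the cause was not tested.

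Over the fits that left out 1 sample number, AP against basal cells ranged from -0.49 to -0.31 for Trp53, from -0.34 to -0.29 for Mdm2 and from -0.72 to -0.64 for Cdkn1a. HSL against basal cells ranged from -1.24 to -0.94 for Cdkn1a. HSL against AP cells ranged from -0.50 to -0.26 for Trp53 and from -3.25 to 0.06 for Trp73. The sign turned for 3 values that were not called: Trp63 with limma-voom (-0.25), Mdm2 with total counts (-0.09) and Trp73 without sample 1 (0.06), all in HSL against AP cells, and the cause was not tested. Total counts moved the median of all genes to 0.14 for AP and -0.10 for HSL cells, both against basal cells, and to -0.18 for HSL against AP cells. Trp73 had no value in HSL against AP cells with those populations alone, since the filter removed it. At the depth of these libraries, levels of Trp73 under about 0.1 CPM rest on a few reads.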
